A study of Mus musculus with 30 samples.

Results

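The crystallin genes described here are the 10 rows of the count tables, of 55573 genes in all, whose symbol was Cryaa, Cryab, Cryba1, Cryba2, Cryba4, Crybb1, Crybb2, Crybb3, Crygs or Crym. RNA was sequenced from retinal pigment epithelium (RPE) taken straight from the eye at postnatal day 25 and from bone marrow-derived macrophages (BMDMs) grown from marrow in the laboratory. Each tissue was sampled in wild-type mice of strain C57BL/6J (B6 WT) and in 3 lines that lack functional Mertk, a receptor tyrosine kinase. With it the RPE takes up photoreceptor outer segments, and macrophages take up dying cells. Mertk-/-V1 lacks exon 17, was made in embryonic stem cells of another strain, keeps its neomycin cassette and was crossed onto C57BL/6J. Mertk-/-V2 lacks exon 18 through Cre recombination of a floxed allele, and Mertk-/-V3 lacks exons 3 to 4 through CRISPR/Cas9. Both were made on C57BL/6NJ, and the labels give C57BL/6J as the strain of all groups. The RPE had 6 libraries each of B6 WT and Mertk-/-V1 and 3 each of Mertk-/-V2 and Mertk-/-V3, and the BMDMs had 3 libraries of each genotype. The labels call the libraries biological replicates and do not say how many animals each holds.

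Crystallins are the proteins that fill the fibre cells of the lens and make it transparent and refractive. The alpha-crystallins Cryaa and Cryab are small heat shock proteins, chaperones that keep other proteins from clumping, and Cryab is also made outside the lens. The beta- and gamma-crystallins are structural proteins of a shared fold. Crym, or mu-crystallin, is unrelated to the others: it is a ketimine reductase that binds thyroid hormone. Crystallin transcripts have also been seen in the retina and RPE, where the alpha-crystallins in particular are studied as protective proteins.

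The 10 genes lie on 7 chromosomes of GRCm38, and none is on chromosome 2, which holds Mertk. Cryba4, Crybb1, Crybb2 and Crybb3 lie together on chromosome 5. The 100 bases before the start of 4 of the genes are shown as examples, from the RefSeq promoter table of GRCm38.p6. That table held 8 of the 10 genes and not Cryab or Crym. Of the 4 shown, the first 3 hold both motifs that were searched, and the fourth holds neither. The capitals mark TATAA, the core of a TATA box, or the Maf half-site TGCTGA, to which regulators of lens genes of the Maf family bind, and which reads TCAGCA on the other strand.
Cryba1, chr11:77725294-77725393, minus strand: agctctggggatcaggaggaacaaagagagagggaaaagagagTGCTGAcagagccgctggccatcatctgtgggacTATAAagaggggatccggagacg
Cryba4, chr5:112252519-112252618, minus strand: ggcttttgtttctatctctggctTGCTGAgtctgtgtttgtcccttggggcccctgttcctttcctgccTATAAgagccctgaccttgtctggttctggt
Crybb1, chr5:112255720-112255819, plus strand: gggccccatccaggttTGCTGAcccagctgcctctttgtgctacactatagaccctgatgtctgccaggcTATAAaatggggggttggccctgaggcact
Crybb2, chr5:113070118-113070217, minus strand: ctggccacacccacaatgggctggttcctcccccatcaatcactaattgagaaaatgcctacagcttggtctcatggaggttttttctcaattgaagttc
TATAA stood on the gene's strand within the last 50 bases before the start in 4 of the 8 promoters (Cryba1, Cryba4, Crybb1 and Crygs) and in 4.93% of 32851 promoters in the table. The Maf half-site stood on either strand within 250 bases before the start in 7 of the 8, all but Crybb2, and in 16.1% of the 32851. A match of letters is a description and was not tested as a binding site or against the levels of the genes.

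Mertk itself was lower in the RPE of Mertk-/-V1 (919 to 1717 normalized counts) and Mertk-/-V3 (444 to 1106) than in B6 WT (2638 to 3924). In Mertk-/-V2 it stood at 3565 to 5311. These counts sum the whole gene, so the loss of 1 exon cannot be checked in them. The RPE libraries held 14137666 to 34124049 reads counted in genes and the BMDM libraries 16629659 to 25653814. Normalized counts, the unit used throughout for levels of 1 gene, are reads divided by the size factor of the library. The RPE libraries carried RPE genes in quantity: Rgr, Ttr and Rpe65, genes of the visual cycle and of retinol transport, ranged from 63400 to 290573, from 62755 to 277480 and from 13235 to 105278 normalized counts. They also carried Gnat1 of rods (7449 to 187583), Krt15 and Krt5 of surface epithelium (15731 to 146734 and 16854 to 107804) and Acta1 of muscle (461 to 5336). In bulk RNA, fewer cells of a type and less RNA per cell cannot be told apart.

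The lens crystallins were abundant in every RPE library and close to absent from BMDMs. All 10 genes had reads in all 18 RPE libraries and passed the filter there (a mean of at least 10 normalized counts), and 0 of 10 passed in BMDMs. In the RPE, the 9 genes other than Crym took 0.0322% to 0.997% of all reads, with a median of 0.364%. In BMDMs, Cryaa, Cryba1, Cryba2, Crybb2, Crygs and Crym had 0 reads in 12 of 12 libraries, which allows a share of up to 1.21e-06% of the 248903716 reads of all BMDM libraries. Crybb1 had 8 reads and Crybb3 9 reads over the 12 libraries. Cryab (2 to 19 reads per library) and Cryba4 (4 to 19) were present in each BMDM library at low levels. Cryab, the most widely made alpha-crystallin, stood at 0.0638 to 0.578 RPKM, which scales reads to the length of the gene and the depth of the library, in BMDMs and at 99.1 to 849 RPKM in the RPE. With no gene past the filter in BMDMs, the genotypes could be compared there only without it: Cryab, Cryba4, Crybb1 and Crybb3, the 4 genes with any reads, were then fitted, and limma called 0 of 4 in each of the 4 comparisons, with 0 at an unadjusted p under 0.05. Of all genes fitted without the filter, 0.26%, 0.137%, 0.0831% and 0.13% were called for the 3 lines against B6 WT, in the order of their numbers, and for Mertk-/-V1 against the mean of the other lines.

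Per length, the genes ran from Crygs to Crym in the RPE. The median over 18 libraries was 433 RPKM for Crygs, a gamma-type crystallin of the lens cortex, and 426 for Cryba1, 387 for Cryab and 373 for Cryaa. Neighbours among these 4 did not separate: Crygs was above Cryba1 in 13 of 18 libraries, Cryba1 above Cryab in 12 and Cryab above Cryaa in 7. Cryba1 was above Cryaa in 18 of 18, however, and Crygs above Cryaa in 17. Crybb2 (255 RPKM) and Crybb1 (254), basic beta-crystallins, also did not separate, with Crybb2 higher in 10 of 18 libraries. Cryaa was above Crybb2, Crybb1 above Cryba4 (190 RPKM) and Cryba4 above Cryba2 (106) in 18 of 18 libraries. Cryba2 exceeded Crybb3 (82.2) in 17 of 18, and Crym was far below the others at 2.56 RPKM. The lone library in which Crym stood above Crybb3 was Mertk-/-V1 replicate 6. Cryaa and Cryab each overlap an antisense gene over part of their exons (AC090881.2 and Hspb2), and reads of the overlap may be shared where counting did not use strand.

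**Figure D1:**
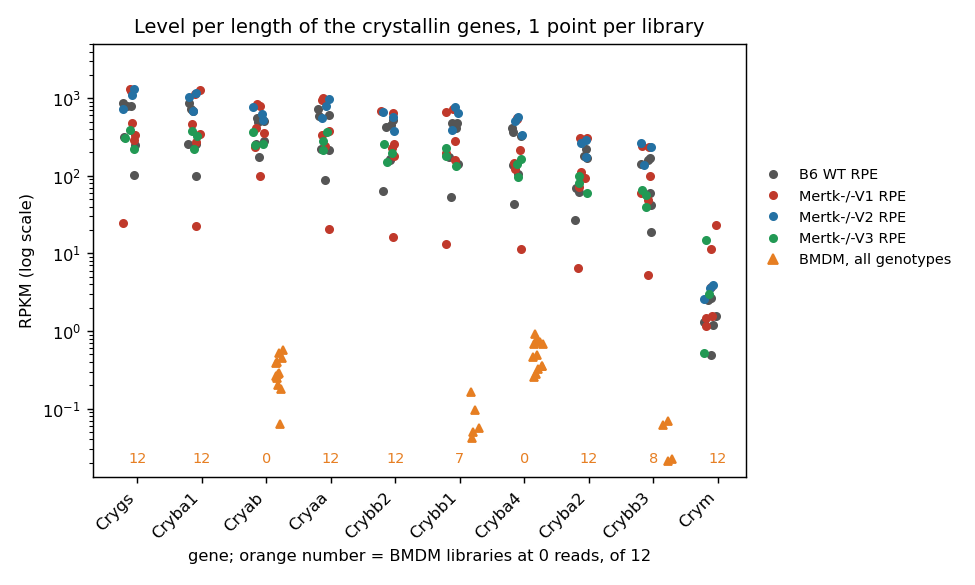
Level per length (RPKM, log axis) of each crystallin gene, 1 point per library, with RPE libraries as circles coloured by genotype, BMDM libraries above 0 as orange triangles, and the number of BMDM libraries at 0 reads, of 12, in orange. Points are spread sideways only so that they can be seen. The 9 lens genes fill the range above 5 RPKM in the RPE, and 6 of the 10 genes are at 0 in every BMDM library.

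The alpha-crystallins varied widely within each genotype. Cryaa stood at 34993, 34277, 12452, 39281, 4376 and 10756 normalized counts in B6 WT replicates 1 to 6. In Mertk-/-V1 replicates 1 to 6 it stood at 53575, 20841, 56301, 16855, 12676 and 981. It was 54701, 28844 and 42528 in the libraries of Mertk-/-V2. Those of Mertk-/-V3 had 14131, 10712 and 19318. The lowest library was Mertk-/-V1 replicate 6 and the highest was Mertk-/-V1 replicate 3, 57.4-fold above it, so the whole range lay inside 1 genotype, and the 3 mutant lines each overlapped B6 WT. Cryab had a narrower range of 10.1-fold. It stood at 20545, 20369, 11192, 21722, 6221 and 9279 in B6 WT and at 31774, 16058, 33872, 12568, 8747 and 3340 in Mertk-/-V1. It stood at 30165, 19500 and 23821 in Mertk-/-V2 and at 8875, 9149 and 13676 in Mertk-/-V3. The libraries that were high and low for Cryaa were high and low for Cryab.

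The beta-crystallins followed nearly the same order of libraries. Crybb1, the basic beta-crystallin that rises as lens fibres differentiate, stood at 11376, 12974, 4591, 12270, 1271 and 3443 normalized counts in B6 WT. It stood at 17820, 7371, 19150, 4656, 3978 and 300 in Mertk-/-V1, at 20082, 9647 and 16356 in Mertk-/-V2 and at 4270, 3136 and 5640 in Mertk-/-V3. Again Mertk-/-V1 replicate 6 was lowest, B6 WT replicate 5 was next, and Mertk-/-V1 overlapped B6 WT at both ends. Cryba1, the acidic beta-crystallin with the highest counts, ranged from 812 to 54221 (66.8-fold). Cryba2 and Cryba4 ranged from 174 to 9770 and from 218 to 12882. Crybb2 and Crybb3 ranged from 735 to 37198 and from 283 to 16390. All 5 had their lowest library in Mertk-/-V1 replicate 6. Crygs stood at 19479, 19208, 7351, 19875, 2128 and 5282 in B6 WT and at 28816, 11183, 30980, 7078, 6449 and 494 in Mertk-/-V1. It stood at 30299, 15930 and 25319 in Mertk-/-V2 and at 6481, 4585 and 8534 in Mertk-/-V3.

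**Figure D2:**
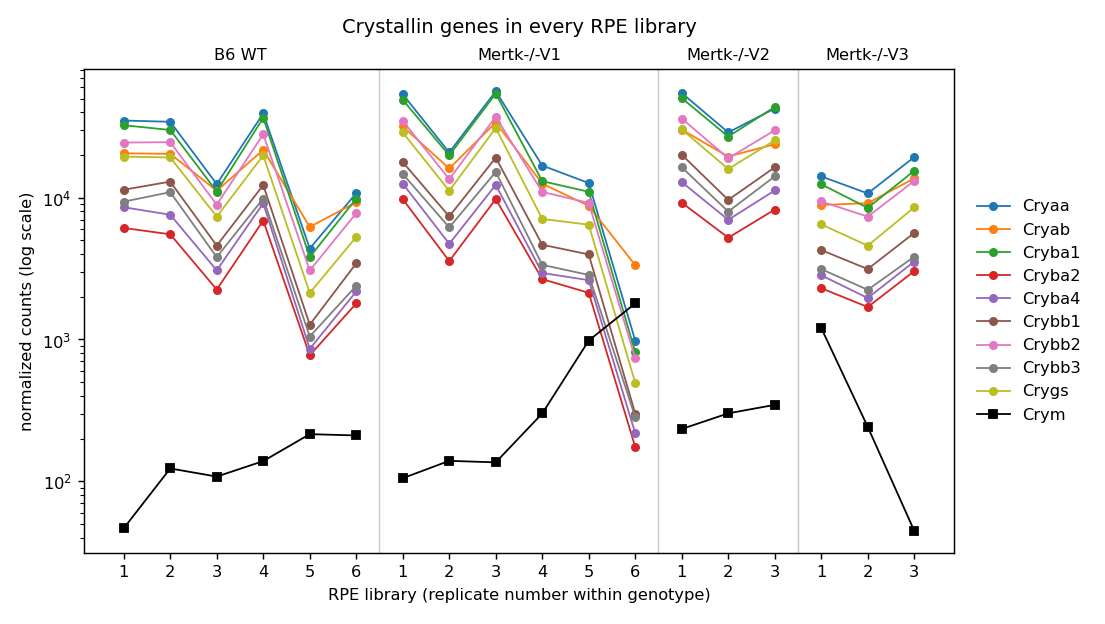
Normalized counts (log axis) of the 10 crystallin genes in each of the 18 RPE libraries, grouped by genotype. Each line joins the libraries of 1 gene within a genotype only to guide the eye. The 9 lens genes rise and fall together, lowest in Mertk-/-V1 replicate 6, and Crym (black squares) does not follow them.

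Crym had another pattern. It stood at 46.6, 123, 108, 139, 215 and 210 normalized counts in B6 WT and at 105, 139, 136, 301, 983 and 1796 in Mertk-/-V1. It stood at 234, 301 and 346 in Mertk-/-V2 and at 1205, 242 and 44.7 in Mertk-/-V3. The highest library was the one in which the lens genes were lowest. All 3 Mertk-/-V2 libraries stood above all 6 of B6 WT, as they did for 3.72% of the 18832 genes tested. The other 9 genes overlapped between Mertk-/-V2 and B6 WT.

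Across the 18 RPE libraries, the lens crystallins kept nearly fixed proportions while their total changed. On log2(normalized count + 1), the 28 pairs among the 8 genes other than Crym and Cryab had Pearson's r between 0.989 and 0.999. Cryab correlated with these 8 at 0.969 to 0.981. The r of Cryaa with Crybb2 was 0.999, with Spearman's ρ 0.998, and it was 0.998 without the 2 libraries farthest from the median and 0.999 within genotypes. These points share library and dissection, so the values are descriptions of these 18 libraries. Per 100 counts of Cryaa there were 64.8 to 75 counts of Crybb2, 77.5 to 103 of Cryba1 and 15.7 to 19.4 of Cryba2, while Cryaa itself varied 57.4-fold. The ratios of Crybb1, Crygs, Cryba4 and Crybb3 to Cryaa were wider and varied 1.39-fold, 1.42-fold, 1.51-fold and 1.67-fold. Cryab departed from this at the low end: it stood at 55.1 counts per 100 of Cryaa in Mertk-/-V2 replicate 1 and at 341 in Mertk-/-V1 replicate 6, so in the library with the fewest lens crystallin reads Cryab was the most abundant of the 10 by normalized counts. Crym correlated with the others at -0.578 to -0.535, but its r with Cryaa was -0.334 without the 2 farthest libraries. The spread of the 8 genes and Crym around their genotype means was 1.43 to 1.56 on the log2 scale (residual SD), beside a median of 0.347 over all genes tested. For Cryab it was 0.889.

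The genes most like the lens crystallins were other lens genes. By the rule of naming the 3 non-members with the highest r for each member, Cryaa was nearest to Bfsp1, a beaded filament protein of lens fibres (r 0.993), Crygd, a gamma-crystallin (0.993), and Grifin, a lens galectin (0.990). Bfsp1 and Crygd were also among the nearest 3 for Cryba1, Cryba2 and Crybb2, with Crygc or Crygb as the third. For Cryba4, Crybb1 and Crygs the nearest 3 were Crygb, Crygc and Crygd, and for Crybb3 they were Crygc, Crygb and Crygf. Cryab was nearest to Bfsp2 (0.982), the partner of Bfsp1, to Fabp5, a fatty acid-binding protein (0.977), and to Crygc (0.974). Of 18831 other genes tested, 25 had r above 0.95 with Cryaa, and 8 of the 25 were members. Crym was nearest to Gpr37 (0.958), an orphan receptor, Thsd7b (0.954) and Trnp1 (0.953). Gpr37 ranged from 113 to 2631 normalized counts.

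Lens genes outside the crystallins were present and varied with them. The list of 13 lens fibre and lens epithelium genes (12 passed the filter, all but Lenep, which lay between 0 and 3.14 normalized counts) summed to 2309 to 19568 in B6 WT and to 888 to 20525 in Mertk-/-V1. The sum was 10774 to 21816 for Mertk-/-V2 and 5245 to 7752 for Mertk-/-V3. Its sum had r 0.986 with Cryaa (ρ 0.969), and r 0.973 without the 2 farthest libraries. Bfsp1 ranged from 169 to 7508 normalized counts, Lgsn, a lens glutamine synthetase-like protein, from 52.8 to 3380, and Mip, the water channel of lens fibres, from 22.5 to 1775. Of the 14 other crystallin-named genes, the gamma-crystallins Cryga to Crygf took 0.0104% to 0.549% of RPE reads. Crygb ranged from 716 to 43092 normalized counts, Crygd from 629 to 40785 and Cryge from 478 to 26390. The other named relatives varied less. Among them Crygn ranged from 60.7 to 463, with r 0.894 with Cryaa, and the enzyme Cryz from 695 to 1532, with r 0.621. Crybg2 and Crybg3 had r 0.418 and 0.352 with Cryaa, and Cryzl1 went the other way (r -0.629). Hspb1, Hspb8 and Hspb6, small heat shock proteins like the alpha-crystallins, ranged from 774 to 4668, from 1103 to 2458 and from 657 to 2240. Their r with Cryaa was 0.683, 0.723 and -0.409 in turn, and the sum of their list had r 0.637 with Cryaa. The part of lens RNA in the crystallin values was not tested.

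**Figure D3:**
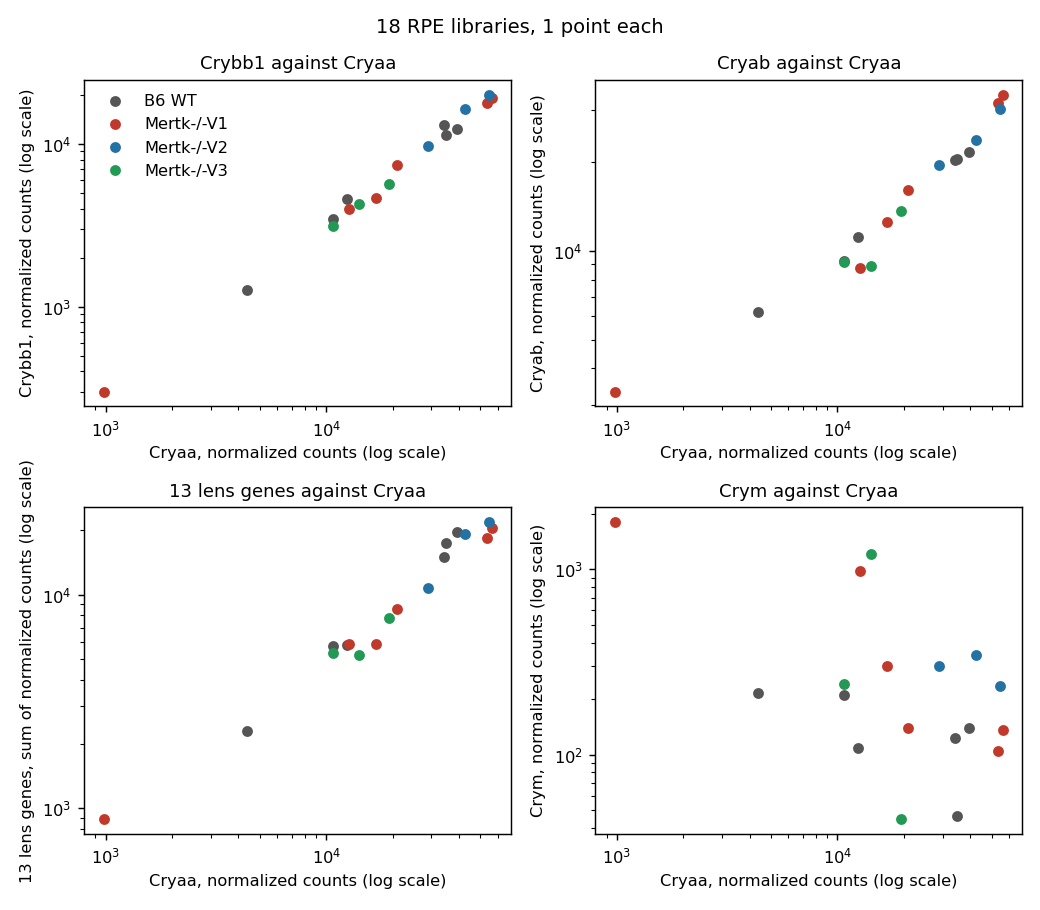
Crybb1, Cryab, the sum of the 13 lens genes and Crym against Cryaa in the 18 RPE libraries, in normalized counts on log axes, coloured by genotype. Crybb1 and the lens genes lie close to a line over the range of Cryaa from 981 to 56301, Cryab bends upward at the low end, and Crym scatters.

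The comparisons of genotypes ask whether loss of Mertk, or the particular Mertk-/-V1 line, goes with a change in these genes. No crystallin gene passed the test in any of them. With limma on log2(normalized count + 1), Benjamini-Hochberg adjustment over 18832 genes and a required difference of at least 2.38-fold, 0 of 10 were called in Mertk-/-V1 against B6 WT, where 0.149% of all genes tested were. The calls were also 0 of 10 in Mertk-/-V2 against B6 WT (0.0584% of all genes), 0 of 10 for Mertk-/-V3 (0.0637%) and 0 of 10 for Mertk-/-V1 against the mean of the other 2 lines (0.0956%). In each, 0 of 10 had an unadjusted p under 0.05. With edgeR and DESeq2 on the recovered reads the calls were also 0, with at most 1 gene at an unadjusted p under 0.05 in a comparison. In Mertk-/-V3 against B6 WT, 9 of 10 had an unadjusted p under 0.05 with array weights, which give less weight to more variable libraries, as did 69.9% of all genes, and 3 of 10 did with the replicate number as a block, as did 44.2%. Neither gave a call among the 10. The spread between libraries sets what could have been seen: the standard error of a lens crystallin other than Cryab was 0.78 to 0.83 in Mertk-/-V1 against B6 WT and 0.96 to above 1 in the comparisons of Mertk-/-V2 and Mertk-/-V3 with B6 WT.

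Cryaa differed from B6 WT by a log2 fold change of -0.18 ± 0.80 (SE) in Mertk-/-V1. The value was 1.22 ± 0.99 for Mertk-/-V2 and -0.28 ± 0.99 for Mertk-/-V3. The 3 comparisons share the B6 WT libraries. The median over the 10 genes was -0.22, 1.30 and -0.40 in turn, beside 0.02, 0.02 and -0.01 over all genes tested. With the replicate number as a block, or with a term for replicates 1 to 3 against 4 to 6, the medians of Mertk-/-V2 and Mertk-/-V3 became 0.32 and -1.37. Both fits take replicates 1 to 3 of Mertk-/-V2 and Mertk-/-V3 to belong with replicates 1 to 3 of the larger groups. The labels do not say this. The largest difference of a lens gene was 1.41 ± 1.00 for Crybb3 in Mertk-/-V2 (limma adjusted p = 0.954). Cryab gave 0.02 ± 0.48, 0.84 ± 0.58 and -0.38 ± 0.58. Crym gave 1.34 ± 0.77, 1.20 ± 0.94 and 0.91 ± 0.94 in the same order (limma adjusted p = 0.787, 0.962 and 0.669). For Mertk-/-V1 against the mean of the other lines, Cryaa gave -0.65 ± 0.80 and Crym 0.29 ± 0.77.

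The sign of the Mertk-/-V1 values was not stable. Without Mertk-/-V1 replicate 6, Cryaa was 0.62 above B6 WT on the log2 scale and all 10 genes were above it. Without B6 WT replicate 1, 2 or 4, Cryaa was 0.02, 0.02 or 0.06 above and 5, 5 or 6 of the 10 genes were. With edgeR, Cryaa was 0.25 above. All 10 genes were higher in Mertk-/-V1 than in B6 WT with edgeR, DESeq2, array weights or replicates 1 to 3 alone, against 2 of 10 in limma on all libraries. The sign of Crym in Mertk-/-V3 turned on replicate 1, without which it was -0.26.

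**Figure D4:**
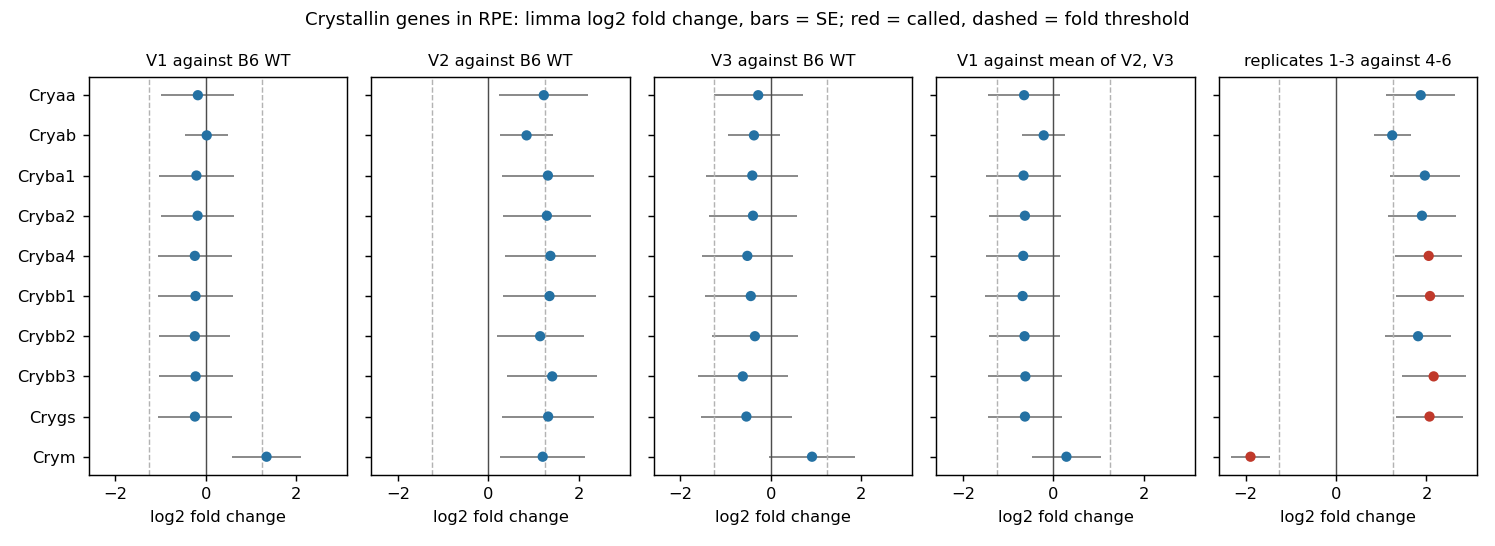
Log2 fold change from limma (points) with its standard error (bars) for each crystallin gene in the RPE, in 4 genotype comparisons and in replicates 1 to 3 against 4 to 6 of B6 WT and Mertk-/-V1. Dashed lines mark the required 2.38-fold in either direction, and red points passed both the adjusted p and the fold threshold. All points of the genotype comparisons are blue, and Cryba4, Crybb1, Crybb3, Crygs and Crym are red in the last.

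Mertk-/-V2 and Mertk-/-V3 have replicates 1 to 3 only, and the 2 larger groups have replicates 1 to 6. Over B6 WT and Mertk-/-V1, with genotype in the model, replicates 1 to 3 were compared with replicates 4 to 6. The labels do not say what, if anything, the 2 sets of numbers mark, and the split was chosen because earlier results of these data showed it. Replicates 1 to 3 were also the deeper set, with 23417838 to 30196674 reads in B6 WT and 27958711 to 34124049 in Mertk-/-V1. Replicates 4 to 6 held 14137666 to 18266704 and 19791803 to 20779930 reads. Mertk-/-V2 libraries held 29522487 to 33169749 reads and those of Mertk-/-V3 16476097 to 21573517. A part of depth in this comparison was not tested. Crybb1 was higher in replicates 1 to 3 by a log2 fold change of 2.08 ± 0.75 (limma adjusted p = 0.0438), and Crybb3 by 2.16 ± 0.71 (0.0308). Crygs and Cryba4 were higher by 2.07 ± 0.74 (0.0434) and 2.05 ± 0.75 (0.0453). Crym was lower, at -1.89 ± 0.44 (0.00892). So 5 of 10 were called, beside 9.24% of all genes tested. Of the 10, 4 were called higher, beside 1.93% of all genes, and 1 lower, beside 7.31%. The 4 called higher correlated with each other at r 0.997 to 0.999, so they are close to 1 measurement. As the split was chosen from results of these same data, its p-values and counts of calls are descriptions. The other 5 had values of the same sign as the 4, from 1.24 ± 0.41 for Cryab, which missed the fold threshold, to 1.96 ± 0.77 for Cryba1, and Cryaa gave 1.87 ± 0.76 (limma adjusted p = 0.0654).

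The separation was complete within Mertk-/-V1 and incomplete within B6 WT. In Mertk-/-V1, all 9 lens genes stood higher in each of replicates 1 to 3 than in any of 4 to 6, as did 22.2% of all genes tested, and Crym stood lower in each, as did 19.4%. In B6 WT, Cryaa was 27241 ± 12813 (SD, n = 3) in replicates 1 to 3 and 18138 ± 18586 (n = 3) in replicates 4 to 6, and the sets overlapped for all 9. Crym did not overlap there, at 46.6 to 123 against 139 to 215, and 17.5% of all genes tested were likewise lower in each of replicates 1 to 3. The effect of Mertk-/-V1 in replicates 1 to 3 minus that in 4 to 6 was 1.74 ± 1.49 for Cryaa and -1.57 ± 0.79 for Crym, and limma called 0 of 18832 genes for it, with 1249 at an unadjusted p under 0.05 and 0 of the 10 crystallins among them. Only Crym kept its call in each omission of 1 library (log2 fold change -2.12 to -1.55). Without B6 WT replicate 3 or 4, 10 of the 10 were called, and without any 1 of B6 WT replicates 1, 2, 5 and 6 or Mertk-/-V1 replicates 1 and 3, 1 of 10 was, which was Crym. Without Mertk-/-V1 replicate 6, 2 of 10 were called. With edgeR 1 of 10 (Crym) and with DESeq2 3 of 10 (Crybb3, Crygs and Crym) were called.

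Among replicates 1 to 3 alone, the genotypes gave 0 calls of 10 in each comparison, beside 0.0425%, 0.085% and 4.59% of all genes for the 3 lines against B6 WT, in the order of their numbers, and 2.65% in Mertk-/-V1 against the other lines. There Cryaa was 0.69 ± 0.48 above B6 WT in Mertk-/-V1, 0.72 ± 0.48 above in Mertk-/-V2 and -0.78 ± 0.48 in Mertk-/-V3. In Mertk-/-V3, 4 of 10 had an unadjusted p under 0.05, as did 38.3% of all genes tested, with Crybb3 at -1.29 ± 0.46 (limma adjusted p = 0.0677). The labels do not say that replicates 1 to 3 of Mertk-/-V2 and Mertk-/-V3 belong with replicates 1 to 3 of the larger groups. If they do not, a difference between lines and a difference between sets cannot be told apart. Among replicates 4 to 6 alone, Cryaa was -1.05 from B6 WT in Mertk-/-V1 (limma adjusted p = 0.769), and Crym 2.13 ± 0.62 (limma adjusted p = 0.562).

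Markers of other cells differed between the 2 sets of replicates as well. The 6 gamma-crystallins Cryga to Crygf rose in replicates 1 to 3 against 4 to 6, from 1.72 for Cryga to 2.29 for Crygc on the log2 scale, and they were the 6 of 14 other crystallin-named genes called. Of the 12 lens genes tested, 1 was called, Lim2, a lens fibre membrane protein, at 1.71, and 12 of 12 were above 0, with a median of 1.81. Of 15 transcription factors of crystallin genes, Sox1 rose by 1.50, and Prox1 (-1.69) and Sox2 (-1.26), which retinal interneurons and glia also express, fell. Foxe3 and Pitx3, factors of the lens epithelium, gave 2.07 and 1.39 and were not called. Their levels were low, at 0 to 50.6 and 0 to 33.2 normalized counts. Of the 15 factors, 6 were above 0, with a median of -0.04. Photoreceptor genes moved the other way: 10 of 11 rod genes fell (Sag -2.20, Gnat1 -2.05, Pde6a, Pde6b, Pde6g, Cnga1, Nrl, Nr2e3, Rp1 and Prph2), as did 6 of 8 cone genes (Arr3 -2.29, Opn1mw, Opn1sw, Pde6h, Cnga3 and Gngt2). Of 10 bipolar, amacrine and ganglion cell genes 5 fell (Gad1 -2.73, Nefl, Isl1, Grm6 and Cabp5), and of 8 glial genes Kcnj10 fell (-1.97). Of 9 skeletal muscle genes 5 rose (Myh4 2.23, Tnni2, Tnnt3, Acta1 and Mylpf), Krt14 of 4 surface epithelium genes rose (1.79), and Kdr of 5 endothelial genes fell (-1.26).

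No gene was called in the lists of RPE, small heat shock, inducible heat shock, fibroblast or macrophage genes. Rgr, Ttr and Rpe65 gave 0.70, 0.69 and 0.88. Hspb8, Hspb1 and Hspb6 gave 0.48, 1.09 and -0.50, and the chaperones Hsp90aa1, Hspd1 and Hspa1b gave 0.06, 0.14 and 0.95. Col1a2, Col1a1 and Dcn of fibroblasts gave -0.30, -0.37 and 0.06, and Csf1r, Lyz2 and Itgam of macrophages 0.53, 0.38 and 0.91. In the 4 genotype comparisons in the RPE, 0 genes of the 15 lists were called. In BMDMs the muscle gene Tnnt3 was called in Mertk-/-V1 against B6 WT (1.52), among 57 called of 13420 genes tested. Its level there was low, at 4.37 to 27.0 normalized counts.

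The sums of the photoreceptor genes and of the bipolar, amacrine and ganglion cell genes were high where Crym was high. The sum of the cone genes had r 0.855 with Crym and that of the bipolar, amacrine and ganglion cell genes 0.872. Slc6a9, the gene with the highest mean in the latter list, went the other way (r -0.836 with Crym), and Rbpms had r 0.458. The sum of the 8 glial genes had r -0.695 with Crym, with Clu at -0.852 and Kcnj10 at 0.888. The sum of the rod genes ran from 22430 normalized counts in B6 WT replicate 1 to 443259 in Mertk-/-V1 replicate 5, and its r was 0.859 with Crym (ρ 0.825) and -0.596 with Cryaa (ρ -0.527). Without the 2 farthest libraries these were 0.845 and -0.452. The sum of the 8 RPE genes ran from 168656 in Mertk-/-V1 replicate 6 to 799892 in B6 WT replicate 2. Its r was 0.661 with Cryaa (ρ 0.490) and -0.834 with Crym (ρ -0.645), and 0.423 and -0.668 without the 2 farthest libraries. Thus the library lowest in lens crystallins was lowest in RPE genes and had the second highest rod sum, 286453. The part of retinal or lens RNA in the differences between the sets of replicates was not tested.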

How the data were processed

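RNA-seq of 30 libraries (18 RPE, 12 BMDM) was used as deposited: a signal of reads per gene that, per the labels and the study's methods, the authors trimmed with btrim, aligned with STAR to GRCm38, counted and divided by DESeq2 size factors, 1 table per tissue. How strand was treated in counting is not given in the sources used here. Dividing each column by its smallest value above 0 gave whole reads for 100% of values (tolerance 0.01). Levels per length (RPKM) used these reads and union exon lengths of GENCODE M21 (GRCm38), which matched 55394 of 55573 genes.

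The main test was limma 3.58.1 (R 4.3.3) with a trended prior on log2(value + 1), 4 genotypes of a tissue in 1 model, for genes averaging 10 or more. A call needed a Benjamini-Hochberg adjusted p under 0.05 together with a 2.38-fold difference or more. Fold changes on this scale understate the change of low genes. edgeR 4.0.16 and DESeq2 1.42.0 on recovered reads, another pseudocount (5), no filter, array weights, fewer groups, replicate terms and omission of each library were alternatives. The 3 tools were also run on simulated counts for Mertk-/-V1 against B6 WT in the RPE. That simulation gave all genes the same dispersion and the sets of replicates no difference. It therefore does not show what could be seen for the crystallin genes. The test of the Mertk-/-V1 effect between sets of replicates was added after seeing the data. P-values and the standard errors of fold changes measure the spread between these libraries. The limit on the share of reads for genes at 0 reads covers counting error only. Genes named were all members, marker genes that passed a call or otherwise the 3 with the highest mean of a list, and the 3 genes most correlated with each member. Mip, Lgsn, Foxe3, Pitx3, Cryz, Crygn, Crybg2, Crybg3, Cryzl1, Lenep, Slc6a9, Rbpms, Clu, Krt5 and Krt15 were named outside this rule, after their values were seen. Members and lists were chosen with earlier results of these data known. The list of rod genes was used without 1 gene, which is not reported here.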

Additional observations from a re-analysis of the deposited data

Results flagged for a closer look

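Within Mertk-/-V1 RPE, the lowest library stood apart from the other 5 for Cryaa and Crybb2 on the log2 scale. Its gap to the nearest library was 0.632 of the whole range for Cryaa and 0.644 for Crybb2, beyond the critical value of 0.625 for 6 libraries. The library was replicate 6 in both, with 981 and 735 normalized counts. The other 7 lens crystallins were lowest in that library too, with gaps from 0.416 (Cryab) to 0.622 (Cryba2). Of 20 groups tested 2 passed the critical value, where chance flags about 1 in 20, and the 2 genes are close to one measurement since they rise and fall together. Its cause was not tested.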

How the results depend on the processing

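In every genotype comparison in the RPE 0 of the 10 genes were called under each alternative run. In BMDMs no crystallin gene was tested except without the filter, where 4 were, so the other alternatives gave no value there. For replicates 1 to 3 against 4 to 6, the 5 calls became 2 with no filter, 1 with edgeR, 3 with DESeq2 and 9 with array weights, remained 5 with a pseudocount of 5, and ranged from 1 to 10 when each library was left out. The cause was not tested. The direction of Cryaa in Mertk-/-V1 against B6 WT turned to 0.25 with edgeR, 0.24 with DESeq2, 0.62 with array weights and 0.69 in replicates 1 to 3 only, and ranged from -0.58 to 0.62 when each library was left out. Against the mean of the other lines, Cryaa turned to 0.13 with edgeR, 0.11 with DESeq2, 0.51 with array weights, 0.29 with a term for the set of replicates and 0.72 in replicates 1 to 3 only, and ranged from -1.02 to 0.14 when each library was left out. Crym in that comparison turned to -0.62 with array weights, -0.66 with a term for the set and -1.05 in replicates 1 to 3 only, and ranged from -0.31 to 0.87. Crym in Mertk-/-V3 against B6 WT ranged from -0.26 to 2.10.

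Same-numbered RPE libraries of different genotypes correlated in their deviations at -0.46 to 0.72 (median 0.15). Differently numbered RPE libraries correlated at -0.71 to 0.74 (median -0.003). In BMDMs the values were -0.30 to 0.36 (median -0.09) and -0.40 to 0.33 (median 0.04). These ranges overlap and do not decide whether the numbers pair samples. The labels state no pairing, so the main fits did not use the numbers. With the replicate number as a block, 0 of 10 genes were called in each genotype comparison, and Cryaa and Crym in Mertk-/-V1 against the mean of the other lines turned to 0.29 and -0.66. Over all genes tested, the block moved the calls from 28 to 37 in Mertk-/-V1, 11 to 200 in Mertk-/-V2 and 12 to 1270 in Mertk-/-V3. Groups of 3 libraries and a spread of 1.43 to 1.56 on the log2 scale limit what could be seen. The lowest RPE library held 872 reads of Cryaa and 155 of Cryba2, and Crym went down to 29 reads in a library. A part of depth was not tested.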
